A study of Danio rerio with 24 samples.

Results

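Livers of mtm mutant zebrafish larvae were set directly against livers of WT larvae exposed to ethanol (EtOH), as a comparison of 2 injured livers. The comparison used the 6 mtm and the 4 EtOH libraries of an experiment with 40 livers pooled per library, 10 of the 24 samples of the series, and the 13209 of 19793 listed genes whose summed count over these 10 libraries was 100 or more. The mtm larvae carried homozygous loss of function of mtm1, and the EtOH larvae were of the WT AB strain and were held in 2% ethanol for 32 h. By the study's methods both were collected at 7 days post-fertilization (dpf). So were the 4 WT and the 4 overfed WT libraries (6 times the usual food from day 5). The study's results section gives 5 dpf instead. Its methods name 4 to 5 replicates per group, against the 6 mtm libraries here. The WT and overfed libraries entered the fit, where they add to the estimates of the spread and of the replicate terms. They thereby also bear on the log2 fold changes between mtm and EtOH livers, as no mtm library is a replicate 4. The other 6 samples belong to a separate experiment and were not used. Limits of the groups bear on every result. The genotype and the ethanol exposure differed at the same time, so their effects cannot be told apart in this comparison alone, and WT levels are given alongside where they bear on a result. The mtm libraries comprised replicates 1, 2 and 3 and the resubmitted replicates R1, R2 and R3, and the labels do not say whether R1 to R3 were new pools of livers. Nothing in the labels says that the pools came from separate clutches, so the p-values measure the spread between these libraries, which may be in part technical.

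Myotubularin, the product of mtm1, removes a phosphate from phosphoinositide lipids on endosomes. In hepatocytes the Rab11 recycling pathway delivers the ABC transporters that secrete bile acids and phospholipid across the canalicular membrane. Failure of this delivery can cause cholestasis. The study proposes that myotubularin controls this delivery in the liver by regulating Rab11. Ethanol is oxidised in hepatocytes by alcohol dehydrogenase and cytochrome P450 enzymes to acetaldehyde and acetate, and heavy exposure is known to cause steatosis, oxidative stress and a stress response of the endoplasmic reticulum.

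The transcript of the mutated gene was examined first. mtm1 was present in mtm livers at 0.154 to 2.33 counts per 1000000 (CPM, scaled between libraries by edgeR), with a median of 0.846, and was 0.171, 2.15, 4.13 and 4.85 CPM in EtOH replicates 1 to 4. The values overlapped through EtOH replicates 1 and 2, and EtOH 1 lay as low as the lowest mtm library. EtOH 2, at 2.15 CPM, lay below the mtm maximum of 2.33. Both were below the 4 WT libraries, which lay between 3.305 and 7.92 CPM. The WT genotype of the library labelled EtOH 1 is therefore in doubt on this gene, although its mean correlation was 0.10 with the other EtOH libraries and −0.26 with the mtm libraries after centring of each gene over the 10 libraries. mtm R2 and EtOH 1, with the lowest mtm1 levels, also had the fewest genes with a count, 12957 and 13215. The other mtm and EtOH libraries had 14436 to 16399 such genes. The part of this in the low mtm1 levels was not tested. Without EtOH 1, 203 genes were higher and 257 lower in mtm livers in the test described below, against 331 and 476 with it. Without EtOH 2 the numbers were 183 and 295, and without EtOH 3 they were 144 and 197. The difference in mean log2 CPM (mtm minus EtOH) was −0.95, which did not pass an exact (2-sided) permutation test (p = 0.357, n = 6 and 4, smallest possible p = 0.00476). Without EtOH 1 the difference was −1.85 and again did not pass (p = 0.0714 in the same permutation test). Counts summed over the gene do not report on the mutated bases, so they are a weak check of the genotype.

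Total counts were similar in the 2 groups, from 8919274 to 15831830 in mtm and from 11059423 to 18948277 in EtOH libraries. The number of genes with a count set 2 libraries apart, with 12957 in mtm R2 and 13215 in EtOH 1 against 14436 to 16399 in the others. EtOH 1 nonetheless had the most total counts. The part of this in counts of 0 in these 2 libraries was not tested. mtm replicates 1 and R2 resembled the other mtm libraries least, with mean correlations of −0.11 and −0.14 to their own group after centring of each gene over the 10 libraries, against 0.05 to 0.08 for the other 4. The library labelled mtm 1 was the only one of the 10 that resembled the other group more than its own, with a mean correlation of −0.07 to the EtOH libraries, while mtm R2 had −0.27. mtm replicate 1 also carried the most hepatocyte marker counts, 232771 CPM (marker sums are relative to the library total without that scaling) against 77584 to 139552 in the other mtm libraries and 135236 to 194653 in EtOH libraries. EtOH replicate 2 held 9223 CPM of skeletal muscle markers, against 620 to 803 in the other EtOH and 74.1 to 2198 in the mtm libraries. No gene passed an edgeR test between the resubmitted and the first mtm libraries at an adjusted p under 0.05, although 902 genes had an unadjusted p under 0.05 and DESeq2 called 125.

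In the edgeR quasi-likelihood test 331 genes were higher and 476 lower in mtm than in EtOH livers at an adjusted p under 0.05 (Benjamini-Hochberg), which is 2.51% and 3.60% of all genes tested and 6.11% in either direction. Of these, 143 higher (1.08%) and 158 lower (1.2%) differed by more than 2 on the log2 scale. The counts called in each list below are to be read against the shares of 2.51% and 3.60%. The median log2 fold change of all genes was 0.04, and the 6 mtm libraries did not overlap the 4 EtOH libraries for 1034 genes (7.83%), including 533 of the 807 called; all 6 mtm libraries lay above all EtOH libraries for 476 genes (3.60%) and below them for 558 (4.22%). The direction of all 807 was the same in each of the other fits examined for it, but their number was not stable. With only the 10 libraries of the 2 groups in the fit, edgeR called 15 higher and 31 lower, without the replicate number as a term 196 and 236, and DESeq2 on the same 10 libraries 498 and 460. Among these 10 libraries EtOH 4 alone carries replicate number 4. With the replicate term its values are therefore fitted exactly, and both such fits compare mtm with EtOH 1 to 3 only. With mtm replicates 1 to 3 alone against the EtOH libraries, whose labels name no submission, 141 were higher and 282 lower. Leaving out one library moved the counts of higher and lower genes by more than 1.5 times for mtm 1 (529 and 768), mtm 3 (183 and 281), mtm R1 (179 and 283), EtOH 1 (203 and 257), EtOH 2 (183 and 295), EtOH 3 (144 and 197) and EtOH 4 (215 and 289), and leaving out mtm 1, mtm R2 and EtOH 1 together gave 552 and 656. Calls of genes named below with their levels held in each of the 10 leave-one-out fits unless the libraries that ended the call are given. Among 108 called genes named below, however, 18 stayed called with only the 10 libraries in the edgeR fit.

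**Figure D1:**
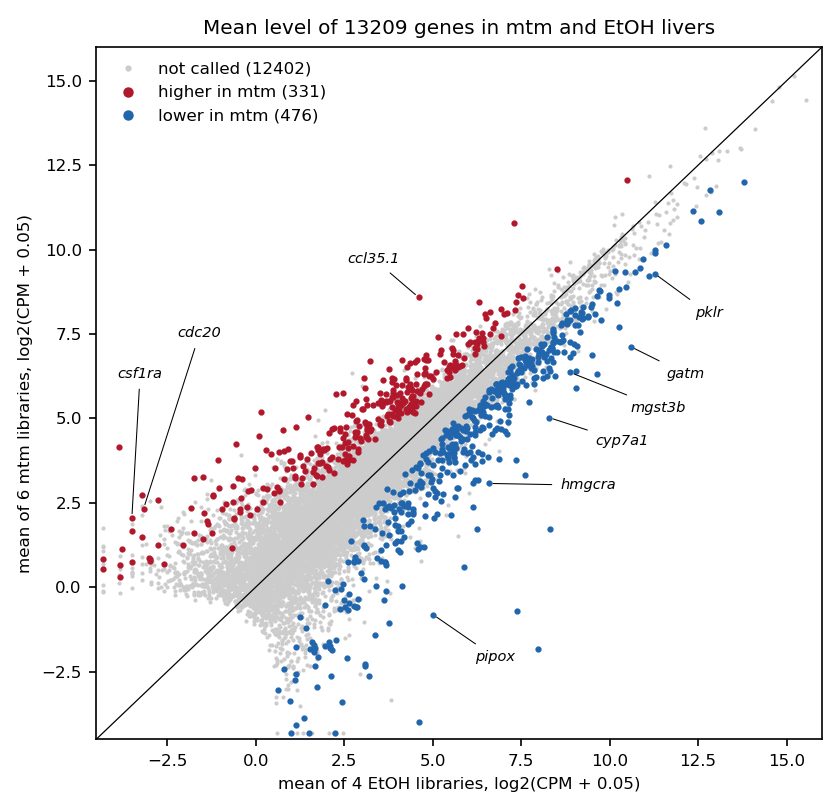
Mean level of each of the 13209 genes in 4 EtOH libraries (x axis) and 6 mtm libraries (y axis), both as log2(CPM + 0.05), with genes called at an adjusted p under 0.05 in colour. The 331 genes called higher in mtm lie above the line of equal level and include csf1ra, cdc20 and ccl35.1, and the 476 called lower include hmgcra, gatm, cyp7a1, mgst3b, pklr and pipox.

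**Figure D2:**
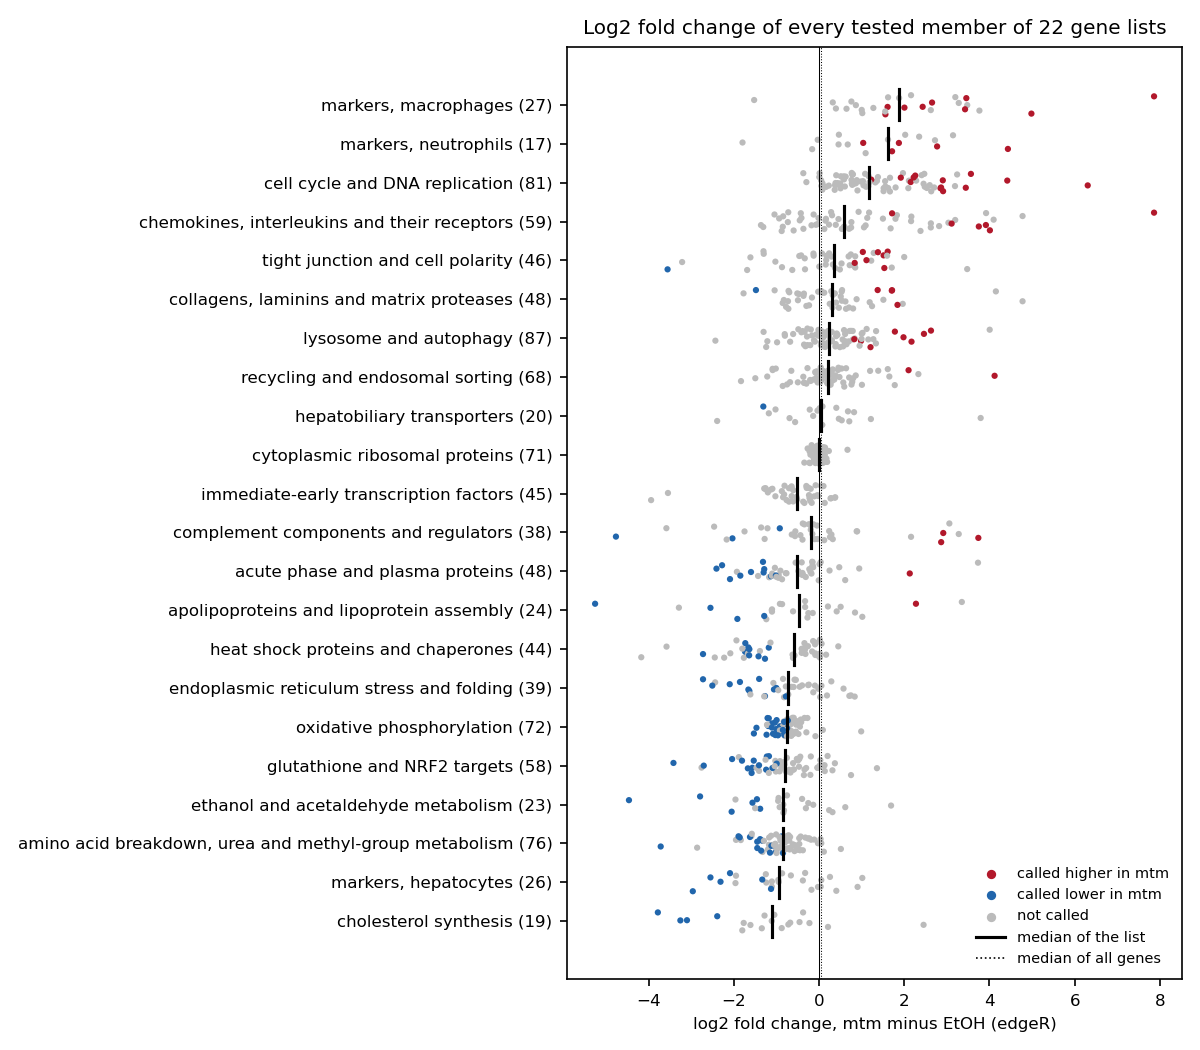
Log2 fold change (mtm minus EtOH) of every tested member of 22 gene lists, with the number tested in parentheses, called members in colour and the list's median as a black bar. Medians run from 1.88 for macrophage markers to −1.11 for cholesterol synthesis, and the 71 ribosomal proteins sit at 0.00 with none called.

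Some genes of macrophages, neutrophils and chemokine signalling were higher in mtm livers and none was called lower. Of 27 tested macrophage markers 9 were called higher and none lower (median log2 fold change 1.88, against 0.04 for all genes), of 17 neutrophil markers 5 and none (1.62), and of 59 chemokines, interleukins and receptors 6 and none (0.59). csf1ra, the receptor for CSF1 on macrophages, had 9, 40 and 59 counts in mtm replicates 1 to 3 and 121, 66 and 79 in R1 to R3, against 0, 0, 0 and 2 in the EtOH libraries. Every mtm library was thus above every EtOH library, with a ratio of pooled counts of 107 (95% counting interval 29.4 to 886, covering counting error only). il34, encoding the second ligand of that receptor, ranged from 13.2 to 66.7 CPM in mtm livers (median 37.11) and was 1.37, 7.35, 2.26 and 21.2 CPM in EtOH livers. The groups overlapped through EtOH replicate 4, and the log2 fold change of 3.11 ± 0.69 (SE, edgeR adjusted p = 0.016) was lost without EtOH 1 or EtOH 3, where the adjusted p reached 0.0727.

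The chemokine ccl35.1 gave one of the widest separations among signalling genes. Its level was 63.3 to 599 CPM in mtm livers (median 399) and 20.99, 31.7, 12.1 and 32.1 CPM in EtOH livers, a log2 fold change of 4.01 ± 0.60 (edgeR adjusted p = 0.0024). The neighbouring family member ccl35.2 followed at 6.54 to 54.4 CPM (median 25.4) against 2.62, 2.51, 1.01 and 2.46 CPM. Neither pair of groups overlapped, and WT livers had at most 2.897 CPM of ccl35.1 and 0.682 CPM of ccl35.2, so that both injured groups lay above WT. The 2 genes are close copies, and reads may have been divided between them by the authors' quantification.

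The scavenger receptor marco was 25.3 to 63.9 CPM in mtm livers (median 50.8) and 11.98, 4.93, 5.37 and 12.1 CPM in EtOH livers. mfap4, a label of larval macrophages in zebrafish, was 31.9 to 135 CPM (median 66.1) against 8.78, 3.94, 3.97 and 16.6 CPM, and the galectin lgals9l1 18 to 33.6 CPM (median 22.4) against 7.76, 3.32, 1.25 and 4.31 CPM. None of the 3 overlapped between groups, but the call was lost without EtOH 3 for marco and lgals9l1 and without EtOH 1, EtOH 2 or EtOH 3 for mfap4 (edgeR adjusted p up to 0.0774). Among neutrophil genes, lyz (lysozyme) was 41.4 to 81.5 CPM (median 59.3) against 10.3, 10.7, 4.28 and 8.84 CPM. Its call was lost without mtm 3, EtOH 1, EtOH 2 or EtOH 3 (adjusted p up to 0.0963). The NADPH oxidase subunit cyba was 29.3 to 66.8 CPM (median 43.8) against 12.7, 15.2, 9.35 and 17.5 CPM, with a log2 fold change of 1.87 ± 0.32 (edgeR adjusted p = 0.0043). The matrix protease mmp9 was 17.1 to 83.4 CPM (median 46.2) against 12.5, 16.6, 9.42 and 19.5 CPM, and it overlapped through 1 EtOH library and lost its call without mtm R1, EtOH 1, EtOH 2 or EtOH 3 (adjusted p up to 0.0968). rac2, a GTPase of blood cells, was 53.04 to 93.5 CPM (median 76.4) against 28.9, 30.6, 31.5 and 28.7 CPM, a log2 fold change of 1.31 ± 0.20 (adjusted p = 0.0024).

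Of the genes with the largest differences in the higher direction, cyth4b, an exchange factor for ARF GTPases, had 9 to 211 counts in the mtm libraries and 0, 0, 3 and 0 in the EtOH libraries, a pooled ratio of 122 (41.4 to 591). il1fma, a member of the interleukin 1 family, had 9 to 147 counts against 0, 0, 0 and 3, a pooled ratio of 54.3 (18.4 to 265). The class I antigen-presenting gene mhc1lea was 2.14 to 33.0 CPM (median 15.5) against 0.685, 2.06, 0.156 and 1.77 CPM, with a log2 fold change of 4.24 ± 0.72 (edgeR adjusted p = 0.0040). selp, encoding the P-selectin that slows leukocytes on vessel walls, was 4.29 to 17.6 CPM (median 7.23) against 0, 0.179, 0.389 and 2.08 CPM. asb11, a substrate adaptor of ubiquitin ligases, was 2.89 to 32.03 CPM (median 19.9) against 0, 0.896, 0.156 and 1.46 CPM, and its call was lost without EtOH 3 (adjusted p = 0.0719). All 5 were free of overlap between the groups. WT livers had 2.29 to 4.67 CPM of selp and 0.724 to 1.28 CPM of cyth4b. For both genes the WT range lay above all EtOH libraries and reached into the mtm range. In other immune lists few genes were called. No member of the 32 JAK-STAT and interferon genes or the 16 antigen presentation genes was called. mhc1lea, called above, is not a member of the antigen presentation list. The 46 TNF-alpha and NF-kB genes had 2 called in each direction, and none without EtOH 1, EtOH 2 or EtOH 3. Their share called was 8.70%, near the 6.11% of all genes.

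The summed level of these markers separated the groups only in part. All macrophage markers together summed to 2725 to 10255 CPM in mtm and 1897 to 2581 CPM in EtOH livers, but all neutrophil markers to 1354 to 4675 and 2330 to 4585 CPM, which overlapped with a lower mean in mtm (2904 against 3215 CPM). Macrophage markers other than apoc1, which hepatocytes also express, summed to 292 to 1034 CPM in mtm and 107 to 177 in EtOH livers, and WT livers lay at 50.0 to 121. Neutrophil markers without lect2l and cpa5, likewise shared with other cells, summed to 527 to 903 against 162 to 351, and lymphocyte and NK cell markers to 138 to 315 against 72.3 to 107. In these 3 sums mtm replicate 1 was the lowest mtm library and still lay above every EtOH library. The exclusion of apoc1, lect2l and cpa5 was chosen after the values were seen. No gene was left out of the lymphocyte and NK cell list, although rac2, the GTPase of blood cells named above, made up 34.8% of its sum. Of its 31 genes with counts listed, 7 were tested. In that list 9 genes had 0 counts in all mtm libraries and 13 in all EtOH libraries, so the sum is weak evidence on lymphocytes. In bulk RNA from pooled livers, more cells of a type and more RNA per cell cannot be told apart, here or in the results that follow. Without mtm 1, mtm R2 and EtOH 1 together, 9 macrophage and 2 neutrophil markers were called higher, with medians of 2.1 and 1.2. Without EtOH 1, EtOH 2 or EtOH 3 alone the macrophage count was 5, 3 and 1, the neutrophil count 1, 3 and 2, and the chemokine count 3, 4 and 4, with macrophage medians of 1.74 to 1.94.

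**Figure D3:**
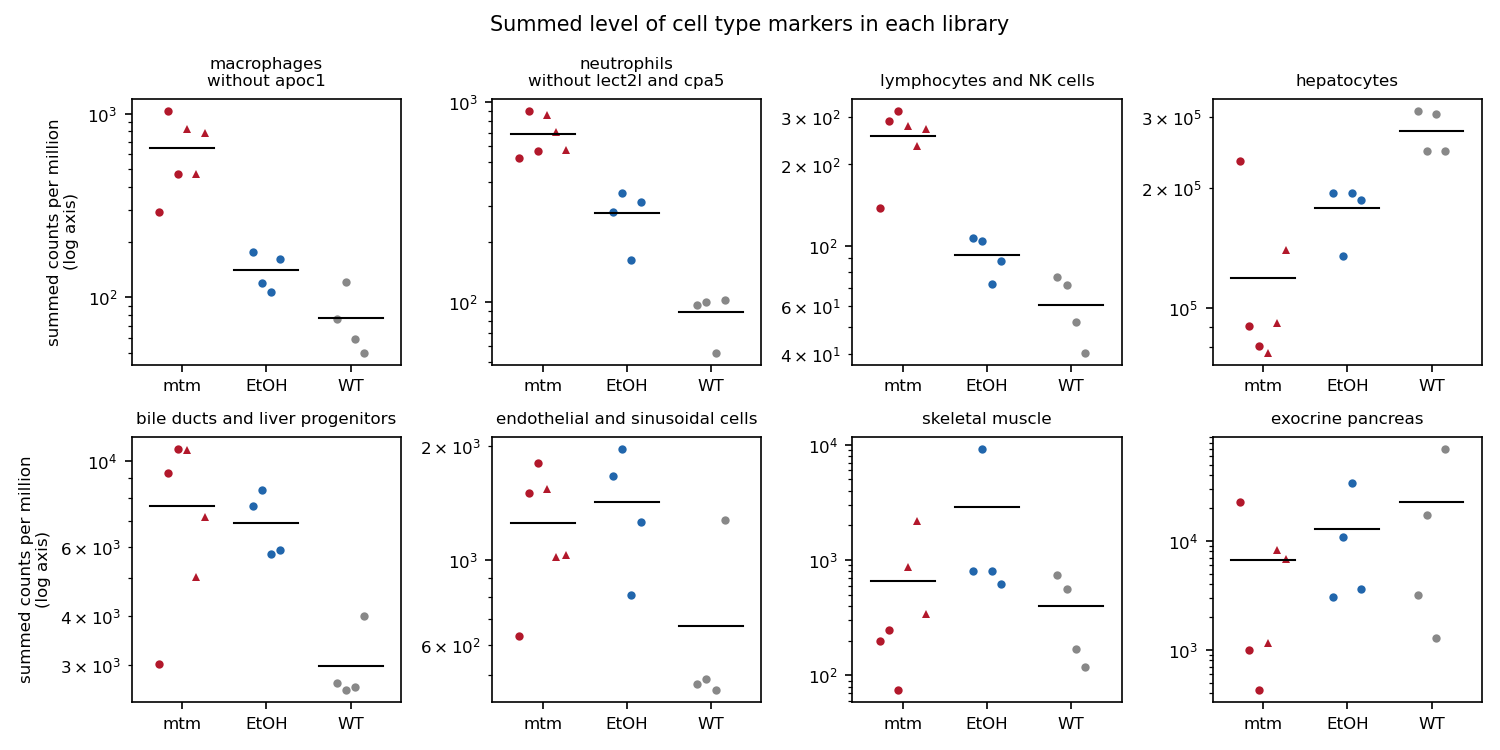
Summed CPM of cell type marker lists in each library (log axis), with circles for mtm replicates 1 to 3, EtOH and WT livers, triangles for mtm replicates R1 to R3, and a line at the mean. The 6 mtm libraries lie above the 4 EtOH libraries for macrophage markers without apoc1, neutrophil markers without lect2l and cpa5, and lymphocyte markers, whereas the full neutrophil list (not plotted) overlaps, and hepatocyte markers are lower in 5 of 6 mtm libraries than in most EtOH libraries and mtm replicate 1 stands above all of them.

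Of 87 lysosome and autophagy genes 8 were called higher and none lower (median 0.24), and 26 had a negative log2 fold change. The share called higher was 9.2%, against 2.51% of all genes. ctsc, encoding cathepsin C, which activates the granule proteases of leukocytes, was 27.5 to 58.3 CPM in mtm livers (median 44.5) and 14.9, 8.78, 9.19 and 10.61 CPM in EtOH livers, with a log2 fold change of 1.98 ± 0.29 (edgeR adjusted p = 0.0023). The lysosomal enzymes ppt1 and tpp1, whose loss causes neuronal ceroid lipofuscinosis in humans, were 92.3 to 187 and 33.3 to 153 CPM in mtm livers. In EtOH livers ppt1 was 61.7, 73.3, 62.6 and 67.1 CPM and tpp1 12.5, 7.62, 15.7 and 21.4 CPM, overlapping the WT ranges of 66.6 to 78.1 and 5.83 to 31.4 CPM. tfe3a, a transcription factor of the family that drives lysosomal genes, was 9.80 to 25.5 CPM (median 20.15) against 1.88, 7.89, 4.05 and 8.77 CPM (log2 fold change 2.17 ± 0.42, adjusted p = 0.0081). All 4 lay wholly above the EtOH libraries in mtm livers, and the macrophage sums above differed in the same libraries. The part of macrophages in the lysosomal difference was not tested. The list had 4 called without EtOH 2 and 4 without EtOH 3.

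Of 81 cell cycle and DNA replication genes 13 were called higher and none lower, and the median log2 fold change was 1.16. The summed level of the list was not higher in every mtm library. It was 618 CPM in mtm 1, below the EtOH range of 668 to 964, and 1630 to 3214 CPM in the other mtm libraries. WT livers had 746 to 1502 CPM. cdc20, the activator of the anaphase-promoting complex, had 8 to 178 counts in the mtm libraries and 0, 1, 2 and 0 in the EtOH libraries, a pooled ratio of 96.8 (32.9 to 471). The mitotic kinase plk1 was 6.54 to 30.3 CPM (median 15.1) in mtm livers and 0.627, 1.70, 4.36 and 4.999 CPM in EtOH livers, a log2 fold change of 2.91 ± 0.55 (edgeR adjusted p = 0.0071). cdc25b, a phosphatase for entry into mitosis, was 6.97 to 18.2 CPM (median 13.96) against 3.88, 5.11, 2.41 and 2.46 CPM, with the call lost without EtOH 3 (adjusted p = 0.0784). WT livers had 6.24 to 13.9 CPM of plk1 and 3.64 to 9.20 CPM of cdc25b, so that the WT range of plk1 lay above all 4 EtOH libraries and reached into the mtm range. The same held for cdc20, with 0.294 to 3.15 CPM in WT, at most 0.156 in EtOH and 0.857 to 8.68 in mtm livers. Overfed livers had 3.78 to 4.93 CPM of cdc20. Without EtOH 1, EtOH 2 or EtOH 3 the list had 7, 4 and 4 called, and with only the 10 libraries none, with medians of 1.1 to 1.35. Without mtm 1 it had 22.

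Junction, bile duct and matrix genes gave smaller differences. Of 46 tight junction and polarity genes 7 were called higher and 1 lower (median 0.35), with 3 higher without EtOH 1, 2 without EtOH 3 and 13 without mtm 1. tjp1b, a copy of the ZO-1 scaffold that lines the bile canaliculus, was 49.5 to 131 CPM in mtm livers (median 89.8) and 21.7, 31.9, 31.1 and 24.6 CPM in EtOH livers (log2 fold change 1.61 ± 0.30, edgeR adjusted p = 0.0066). The polarity kinase prkci was 27.6 to 62.0 CPM (median 40.6) against 10.55, 22.7, 18.5 and 20.23 CPM (1.38 ± 0.28, adjusted p = 0.0090). The single junction gene called lower, the claudin cldn7a, was 1.82 to 23.6 CPM (median 5.18) in mtm livers against 46.3, 57.0, 58.5 and 45.8 CPM in EtOH livers, while WT livers had at most 0.661 CPM. It was thus near absent in WT, intermediate in mtm and highest in EtOH livers.

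Of 26 bile duct and progenitor markers 3 were called higher and 2 lower (median 0.61), and their summed level overlapped between mtm (3022 to 10717 CPM) and EtOH livers (5780 to 8416). The shares called were 11.5% higher and 7.69% lower, against 2.51% and 3.60% of all genes. sox9b, a transcription factor of biliary cells, was 48.5 to 208 CPM in mtm livers (median 110) and 61.1, 52.3, 45.5 and 33.0 CPM in EtOH livers, with only mtm replicate 1 inside the EtOH range. Its log2 fold change of 1.31 ± 0.34 (edgeR adjusted p = 0.035) was lost without mtm 3, mtm R1, mtm R3, EtOH 2, EtOH 3 or EtOH 4 (up to 0.113). yap1, the effector of the Hippo pathway, was 101 to 207 CPM (median 138) against 71.4, 103.1, 83.0 and 89.1 CPM and lost its call without mtm 3, mtm R1 or any one EtOH library (up to 0.0808). The galectin lgals2b moved the other way, at 426 to 1068 CPM against 2207, 1594, 2327 and 1805 CPM, with its call lost without EtOH 1 or EtOH 3 (up to 0.0657). The list had no gene called higher without EtOH 3 and 1 without EtOH 1 or EtOH 2, and 5 without mtm 1. Among 48 collagens, laminins and matrix proteases 4 were called higher and 1 lower (median 0.30), and none without EtOH 1 or EtOH 3 and 1 without EtOH 2. That is 8.33% higher and 2.08% lower, against 2.51% and 3.60% of all genes.

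From among the most abundant genes called higher, 4 were singled out after their values were seen. No list of related genes was tested. tmsb4x, encoding the actin-sequestering thymosin beta, was 1420 to 6051 CPM in mtm livers (median 4527) against 1746, 1913, 961 and 1112 CPM in EtOH livers. Of its mtm libraries only replicate 1 fell within the EtOH range, and the log2 fold change of 1.6 ± 0.37 (edgeR adjusted p = 0.018) lost its call without mtm R1, EtOH 3 or EtOH 4 (up to 0.0800). The actin-severing cfl1 was 543 to 818 CPM against 322, 343, 440 and 357 CPM, and its call was lost without EtOH 1 or EtOH 2 (up to 0.0710). cotl1, which binds filamentous actin, was 133 to 358 CPM (median 306) against 113, 65.1, 78.4 and 102 CPM, and lsp1, a leukocyte actin-binding protein, 114 to 307 CPM (median 195) against 58.6, 65.1, 63.4 and 66.6 CPM. For the latter pair the groups did not overlap and the log2 fold change was 1.72 ± 0.32 and 1.72 ± 0.30 (adjusted p = 0.0059 and 0.0045).

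Endothelial markers showed the opposite sign where they were called. Of 30 tested, 3 were lower and none higher in mtm livers (median −0.33, and 0.06 with 1 lower without EtOH 1 and −0.02 with 1 without EtOH 2), and their sums overlapped, at 633 to 1803 CPM in mtm and 811 to 1962 in EtOH livers. The share called lower was 10%, against 3.60% of all genes. lyve1a, a hyaluronan receptor of sinusoidal and lymphatic endothelium, was 21.8 to 43.9 CPM in mtm livers (median 35) and 155, 168, 93.2 and 160 CPM in EtOH livers, with a log2 fold change of −2.09 ± 0.35 (edgeR adjusted p = 0.0039). plvapb, a component of endothelial fenestrae, was 18.1 to 58.5 CPM (median 53.8) against 148, 219, 83.2 and 133 CPM. The water channel aqp1a.1 was 47.1 to 99.2 CPM (median 58.3) against 267, 264, 94.6 and 171 CPM. Calls were lost without mtm 3, EtOH 1 or EtOH 2 for plvapb and without EtOH 1 or EtOH 2 for aqp1a.1 (adjusted p up to 0.127). In WT livers lyve1a was 9.89 to 23.4 CPM and plvapb 14.2 to 29.7 CPM, below all EtOH libraries.

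Some hepatocyte genes were lower in mtm than in EtOH livers, and others did not pass the test. Of 26 hepatocyte markers 6 were called lower and none higher (median −0.95), and of 48 acute phase and plasma proteins 10 lower and 1 higher (−0.52). The latter list had 6 lower without EtOH 1, 3 without EtOH 3 and 20 without mtm 1. serpina1, encoding alpha-1-antitrypsin, was 1477 to 2970 CPM in mtm livers (median 2152) and 4724, 3786, 5956 and 6334 CPM in EtOH livers, without overlap, and lost its call without EtOH 3 (edgeR adjusted p = 0.0552). Its close copy serpina1l was 790 to 6741 CPM (median 1490) against 9519, 5547, 10749 and 9197 CPM, overlapping through mtm replicate 1, and fetub, a fetuin, was 2445 to 9311 CPM (median 2866) against 12423, 7785, 16822 and 19620 CPM. Both were singled out as the most abundant genes called lower, and both lost the call without EtOH 3 (up to 0.0746). Coagulation factor f9b was 81.6 to 283 CPM (median 114) against 571, 270, 563 and 776 CPM (log2 fold change −1.85 ± 0.38, adjusted p = 0.011).

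The second fetuin ahsg2 was 25.1 to 205 CPM (median 53.2) in mtm livers against 385, 351, 436 and 221 CPM in EtOH livers, a log2 fold change of −2.27 ± 0.48 (edgeR adjusted p = 0.013). mst1, encoding a hepatocyte-secreted ligand of the Ron receptor, was 96.4 to 277 CPM (median 133) against 403, 346, 407 and 472 CPM and lost its call without EtOH 3 (0.0563). The haem-binding plasma protein listed as hpx a was 0.0783 to 16.9 CPM (median 0.636) against 190, 27.8, 60.6 and 26.9 CPM, with the mtm maximum in replicate 1, and WT livers had 123 to 315 CPM. The single plasma protein called higher was the growth factor igf2a, at 76.7 to 146 CPM (median 111) against 31.9, 16.8, 33.9 and 24.9 CPM (2.13 ± 0.32, adjusted p = 0.0023). WT livers had 88.7 to 192 CPM of igf2a, so that the EtOH group was the one that lay apart.

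Of 24 lipoprotein genes 4 were called lower and 1 higher (median −0.47). Lower calls numbered 1 without EtOH 3 and 8 without mtm 1, with medians of −0.32 and −0.82, and none was higher without EtOH 2 or EtOH 3. apoa1a, a structural apolipoprotein of high-density lipoprotein, was 158 to 318 CPM in mtm livers (median 192) and 1614, 758, 1341 and 1161 CPM in EtOH livers, a log2 fold change of −2.55 ± 0.35 (edgeR adjusted p = 0.0015). apoa4b.1 was 143 to 1015 CPM (median 201) against 1220, 854, 1375 and 1327 CPM, with mtm replicate 1 inside the EtOH range and the call lost without EtOH 3 (0.0647). apom, a carrier of sphingosine-1-phosphate, was 732 to 2000 CPM (median 962) against 3535, 1709, 3935 and 3255 CPM, and its call was lost without mtm 3, mtm R1, mtm R3, EtOH 1, EtOH 2 or EtOH 3 (up to 0.109). In contrast fabp10a, the liver fatty acid-binding protein used to label zebrafish hepatocytes, was 7122 to 26354 CPM (median 10877) in mtm livers against 6502, 5406, 7647 and 7026 CPM, and apoc1 1729 to 11278 CPM (median 3337) against 2598, 1781, 2042 and 2472 CPM. Neither passed the test (log2 fold change 0.91 and 1.02, adjusted p = 0.11 and 0.14), and both were chosen after the values were seen.

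The hepatocyte list is dominated by a few genes, and its sum varied with the library: 5 mtm libraries had 77584 to 139552 CPM, and mtm replicate 1 had 232771. With fabp10a left out the 5 were 67391 to 125431 against 129782 to 188637 in EtOH livers, but mtm 1 at 209490 lay above all EtOH libraries. fabp10a itself had a higher level in mtm livers, and leaving it out was not among the rules set beforehand. Genes of hepatocyte metabolism below differed in the same direction as the hepatocyte sum of those 5 mtm libraries. The part of that sum in those results was not tested. Without mtm replicate 1, 13 of the 26 markers were called lower and the median was −1.29, and without EtOH 3 there were 3 called.

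The summed level of cholesterol synthesis enzymes was 199 to 417 CPM in mtm and 376 to 630 CPM in EtOH livers, overlapping ranges that both lay below the 4599 to 14774 CPM of WT livers. Of 19 tested 4 were called lower in mtm than in EtOH livers and none higher, and the median was −1.11. hmgcra, encoding the rate-limiting HMG-CoA reductase, was 2.14 to 18.2 CPM in mtm livers (median 6.79) and 104, 38.4, 155 and 87.4 CPM in EtOH livers. WT livers had 1039 to 1849 CPM, so that the 3 groups did not overlap, and the log2 fold change between the injured livers was −3.78 ± 0.47 (edgeR adjusted p = 0.00095). This call also held with only the 10 libraries (0.0328). cyp51, a sterol demethylase, was 10.9 to 36.5 CPM (median 24.7) against 152, 54.1, 187 and 135 CPM and 2146 to 3699 CPM in WT, with a log2 fold change of −2.39 ± 0.35 (adjusted p = 0.0023). The sterol reductase tm7sf2 was 0.461 to 10.1 CPM (median 3.92) against 34.2, 32.2, 28.3 and 36.3 CPM (−3.25 ± 0.66, adjusted p = 0.0099). Of the 23 genes of sterol sensing, uptake and efflux 2 were lower and none higher (median −0.28), with none called without EtOH 1 or EtOH 3 and 1 without EtOH 2. That is 8.70% of this list, against 6.11% of all genes called in either direction.

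Bile acid synthesis differed at its 2 best known steps. Of 17 tested genes 2 were called lower and none higher, and the median of the list was −0.02. Without EtOH 1, EtOH 2 or EtOH 3 there was 1, and without mtm 1 there were 4, and the median was 0.08 without EtOH 2. cyp7a1, the rate-limiting enzyme of bile acid synthesis, was 12.95 to 64.0 CPM in mtm livers (median 32.8) and 235, 223, 231 and 564 CPM in EtOH livers, without overlap. WT livers had 4.35 to 67.7 CPM, covering the whole mtm range, and all EtOH libraries were above both. The log2 fold change of −2.96 ± 0.75 (edgeR adjusted p = 0.029) was lost without mtm 3 or any one EtOH library (up to 0.104), although the call held with only the 10 libraries (0.0327). cyp8b1, which sets the ratio of cholic acid in mammals, was 10.1 to 70.5 CPM (median 22.6) against 121, 76.1, 181 and 185 CPM (−2.31 ± 0.46, adjusted p = 0.0090), and here WT livers at 69.5 to 156 CPM lay close to the EtOH level.

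The transporters and trafficking genes of the study's question that could be tested mostly did not pass the test. Of the genes chosen for this question beforehand, abcb11a, abcb4, abcb5 and dnm2b were not listed under these names in the deposited counts. Nothing is therefore said of them here. Of 20 hepatobiliary transporters 1 was called, or 5% against 6.11% of all genes in either direction. The list median of 0.05 turned to −0.15 without EtOH 1. None was called without EtOH 3 and 3 without mtm 1. abcb11b, the bile salt export pump, was 324 to 868 CPM in mtm livers (median 529) and 417, 271, 426 and 537 CPM in EtOH livers, a log2 fold change of 0.41 ± 0.33 (edgeR adjusted p = 0.50). abcc2, the canalicular conjugate exporter, was 6.24 to 112 CPM (median 17.3) against 48.6, 36.6, 70.26 and 60.5 CPM (−1.18 ± 0.60, adjusted p = 0.26). The xenobiotic exporter abcg2a was the 1 called, at 19.3 to 63.0 CPM (median 38.8) against 69.1, 67.7, 126 and 194 CPM. Its groups did not overlap (−1.31 ± 0.31, adjusted p = 0.023), and the call was lost without mtm 3, EtOH 3 or EtOH 4 (up to 0.0831).

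Among the recycling GTPases, rab11a was 121 to 159 CPM in mtm livers (median 140) and 98.6, 86.9, 78.7 and 75.4 CPM in EtOH livers. The 2 groups did not overlap, yet the log2 fold change of 0.64 ± 0.22 had an edgeR adjusted p of 0.096. rab11ba was 83.9 to 129 CPM against 111, 66.7, 97.4 and 99.1 CPM (0.25 ± 0.21, adjusted p = 0.53), and rab11bb 0.0768 to 8.79 CPM against 4.62, 13.8, 3.66 and 4.46 CPM, a difference whose sign turned with the libraries included. The membrane-fission GTPase dnm2a was 6.57 to 13.5 CPM (median 7.45) against 2.74, 6.54, 3.19 and 3.31 CPM, again without overlap and short of the threshold (1.24 ± 0.38, adjusted p = 0.063). WT livers had 4.87 to 7.84 CPM of dnm2a, overlapping the ranges of both groups. The share called higher among recycling and endosomal sorting genes was 2.94%, near the 2.51% of all genes. Of the 68 tested 2 were called, both higher (median 0.20), with 1, 0 and 1 without EtOH 1, EtOH 2 or EtOH 3. These were the Rab11 adaptor rab11fip4b, 0.877 to 17.2 CPM (median 4.62) against 0, 0.358, 0.857 and 0.308 CPM, and the sorting nexin snx18a, 22.6 to 41.2 CPM against 2.22, 12.01, 5.22 and 23.92 CPM. Both calls were lost in part of the leave-one-out fits, without mtm R3, EtOH 1, EtOH 2 or EtOH 4 for rab11fip4b and without mtm 2, mtm 3, mtm R1, mtm R3, EtOH 1, EtOH 2 or EtOH 3 for snx18a (adjusted p up to 0.166). The 42 myotubularins, phosphoinositide enzymes and dynamins had 1 called, the phosphatase inpp4aa, which was higher in mtm livers at 1.93 to 39.25 CPM (median 9.82) against 0.228, 5.11, 1.25 and 1.31 CPM and lost its call without EtOH 3 (0.0515). That is 2.38% of this list, again near the 2.51% of all genes.

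**Figure D4:**
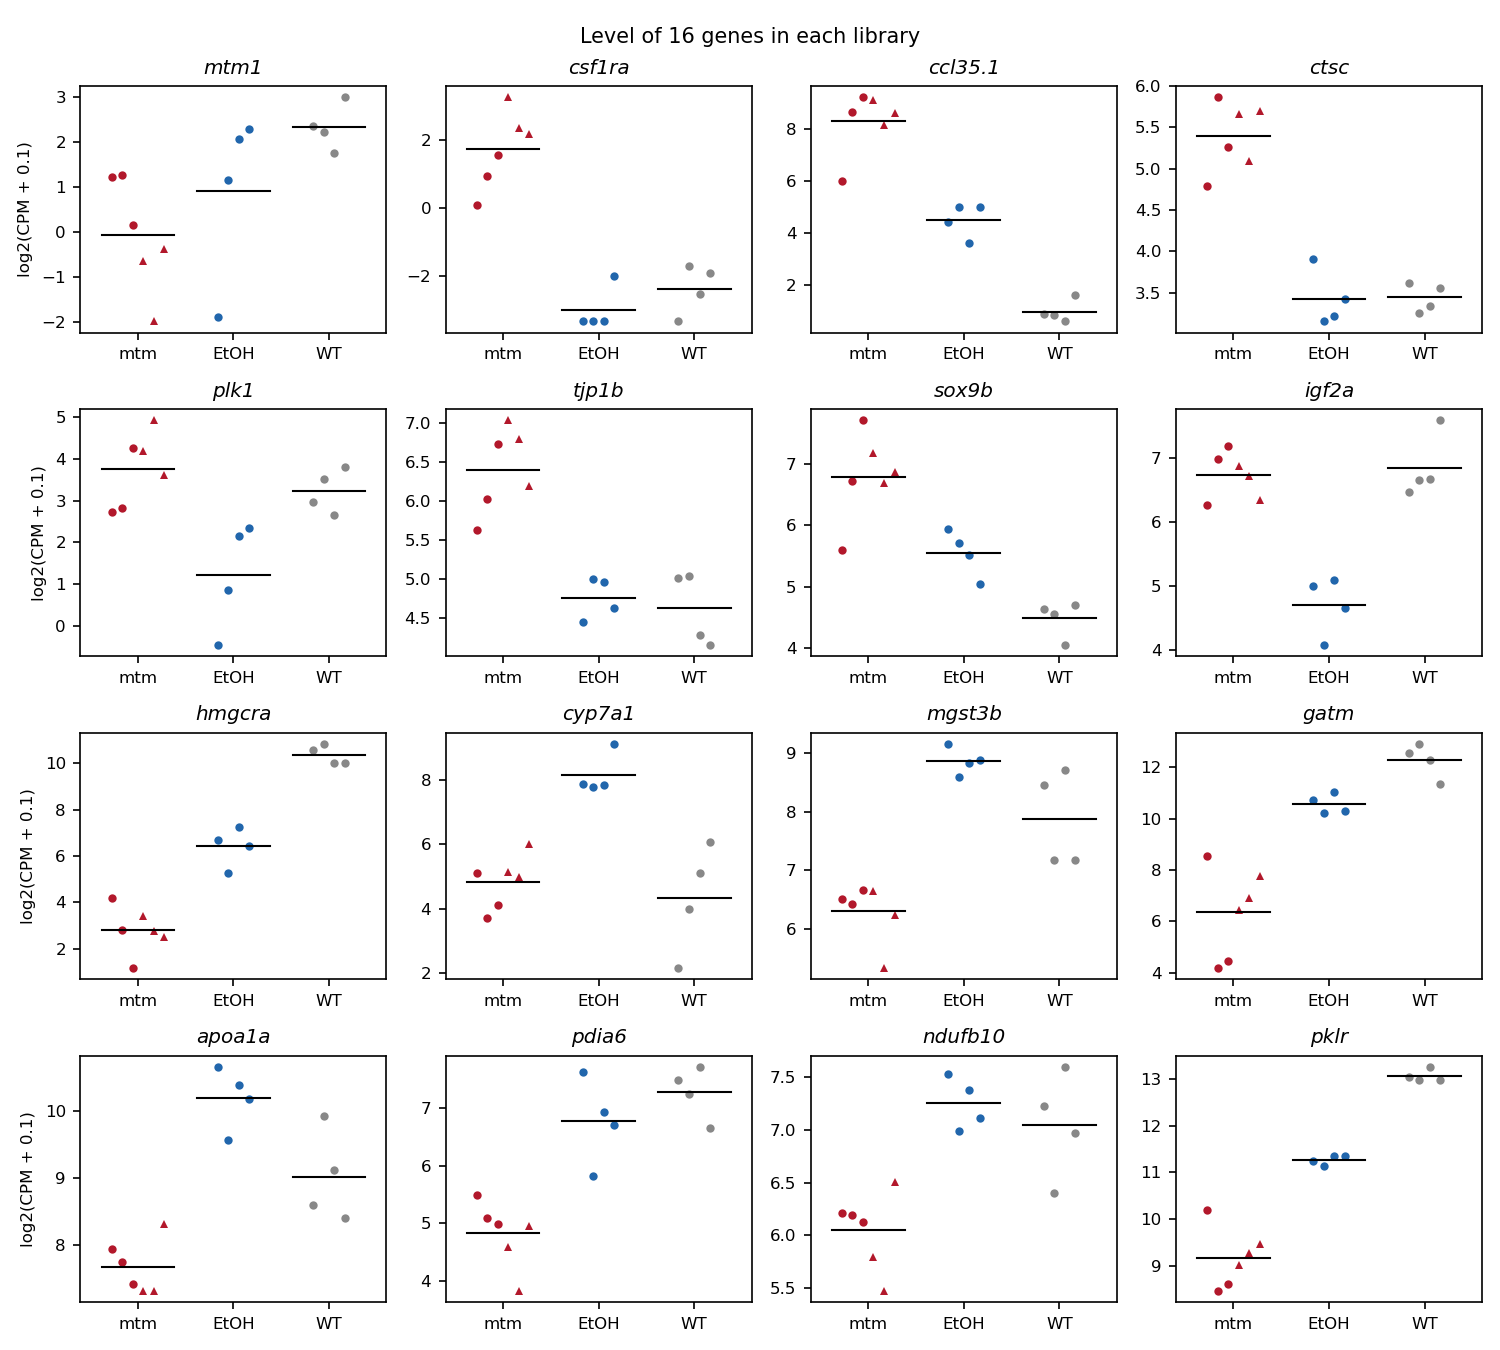
Level of 16 genes in each library as log2(CPM + 0.1), for mtm (red, circles for replicates 1 to 3 and triangles for R1 to R3), EtOH (blue) and WT livers (grey), with a line at the mean. The mtm libraries lie above all EtOH libraries for csf1ra, ccl35.1, ctsc, plk1, tjp1b and igf2a and below them for hmgcra, cyp7a1, mgst3b, gatm, apoa1a, pdia6, ndufb10 and pklr, while mtm1 and sox9b overlap.

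Of 23 genes of ethanol and acetaldehyde metabolism 6 were called lower in mtm livers and none higher (median −0.84), a count of 3 without EtOH 3 and 11 without mtm 1. The summed level of the list was 1096 to 1961 CPM in mtm, 2029 to 2512 in EtOH and 3201 to 4525 in WT livers. Both injured groups thus lay below WT. adh8a, an alcohol dehydrogenase, was 0 to 1.88 CPM in mtm livers (median 0.468) and 25.5, 1.88, 11.61 and 10.23 CPM in EtOH livers, with the lowest EtOH library just above the highest mtm library (log2 fold change −4.46 ± 0.80, edgeR adjusted p = 0.0055). WT livers had 21.6 to 48.2 CPM. cyp2p6, of the CYP2 family, was 19.04 to 36.11 CPM (median 25.9) against 113, 65.1, 75.9 and 79.2 CPM (−1.56 ± 0.26, adjusted p = 0.0040), and acss2l, an acetyl-CoA synthetase, 0.439 to 2.59 CPM (median 0.650) against 3.65, 3.76, 3.66 and 5.31 CPM (−2.05 ± 0.40, adjusted p = 0.0082). Of 32 xenobiotic P450 genes and targets 4 were lower and none higher (median −0.32), 11 had a positive log2 fold change, and 2 were lower without EtOH 1, EtOH 2 or EtOH 3, with 1 higher without EtOH 2. The main one by level, cyp3a65, was 293 to 661 CPM (median 439) against 1053, 925, 1500 and 2123 CPM (−1.47 ± 0.26, adjusted p = 0.0055), and cyp2aa12 was 40.7 to 170 CPM (median 61.6) against 319, 177, 299 and 414 CPM (−1.91 ± 0.36, adjusted p = 0.0064). The cyp2 genes belong to a family of near copies, among which the authors' quantification may have divided reads.

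The glutathione and NRF2 list had 14 of 58 genes called lower and none higher (median −0.79), and 22 lower and 1 higher without mtm 1. mgst3b, a microsomal glutathione transferase, was 40.2 to 101 CPM in mtm livers (median 88.3) and 574, 388, 455 and 473 CPM in EtOH livers. The groups were far from overlapping, and the log2 fold change was −2.70 ± 0.29 (edgeR adjusted p = 0.00038, and 0.0100 with only the 10 libraries). The related mgst1.1 was 1.36 to 8.15 CPM (median 3.38) against 50.5, 36.8, 42.1 and 52.5 CPM (−3.41 ± 0.45, adjusted p = 0.0013). gstp1 was 38.02 to 95.7 CPM (median 79.95) against 278, 274, 264 and 288 CPM (−2.04 ± 0.30, adjusted p = 0.0023), and gstk1 6.54 to 25.4 CPM (median 11.5) against 83.8, 30.0, 31.8 and 30.8 CPM (−1.81 ± 0.30, adjusted p = 0.0039). WT livers placed the 4 genes differently: mgst1.1 at 11.8 to 26.8 CPM lay between the injured groups, mgst3b at 144 to 418 CPM reached the EtOH level, and gstp1 at 285 to 884 CPM and gstk1 at 79.0 to 190 CPM lay at or above it. The median of the list stayed between −0.88 and −0.72 in the fits examined without mtm 1 or without EtOH 1, EtOH 2 or EtOH 3.

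Of genes of stress and folding in the endoplasmic reticulum (ER) 11 of 39 were called lower and none higher (median −0.72), as were 9 of 44 heat shock and chaperone genes with none higher (−0.59). Summed levels overlapped, at 2538 to 4569 CPM in mtm and 4250 to 5531 in EtOH livers for the ER list. The heat shock sums were 4037 to 8119 and 5404 to 6437 CPM, with a higher mean in mtm (6204 against 6018 CPM). The chaperone hspa8 made up 58.1% of those counts. pdia6, a protein disulfide isomerase, was 14.1 to 45.2 CPM in mtm livers (median 31.4) and 197, 56.5, 123 and 104 CPM in EtOH livers (log2 fold change −2.09 ± 0.31, edgeR adjusted p = 0.0023). dnajb9b, an ER co-chaperone that stands in both lists, was 3.53 to 13.4 CPM (median 5.67) against 54.9, 23.4, 30.5 and 24.7 CPM (−2.72 ± 0.51, adjusted p = 0.0066), and derl3, of ER-associated degradation, 9.32 to 33.0 CPM (median 13.3) against 89.96, 45.0, 41.0 and 56.8 CPM (−1.85 ± 0.35, adjusted p = 0.0071). None of the 3 overlapped between groups, and WT livers had 101 to 210 CPM of pdia6, a range overlapping that of EtOH livers. ppp1r15b, which directs the phosphatase that ends the integrated stress response, was instead above WT in EtOH livers: it was 5.80 to 34.6 CPM in mtm (median 12.9), 93.7, 54.6, 59.8 and 100 CPM in EtOH and 2.05 to 9.47 CPM in WT livers, with the call lost without EtOH 1 (0.0668). Without EtOH 1, EtOH 2 or EtOH 3 the ER list had 5, 7 and 6 genes called, and without mtm 1 it had 18. The mitochondrial co-chaperonin hspe1 was 85.3 to 234 CPM (median 211) against 588, 438, 739 and 540 CPM (−1.73 ± 0.28, adjusted p = 0.0039), and the co-chaperone dnajb2 2.59 to 6.19 CPM against 15.9, 16.4, 15.1 and 18.1 CPM.

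Of 33 genes of the amino acid response 4 were lower and none higher (median −0.81; 1 without EtOH 1 or EtOH 3 and 8 without mtm 1), among them pycr1b, of proline synthesis, at 20.7 to 42.2 CPM (median 28.3) against 65.8, 54.8, 98.9 and 77.8 CPM, and farsa, a tRNA synthetase subunit, whose call was lost without EtOH 1 or EtOH 3 (edgeR adjusted p up to 0.0700). The summed level of this list overlapped, at 3182 to 6206 CPM in mtm and 3683 to 4633 in EtOH livers. Its mean was higher in mtm (4515 against 4134 CPM). Of 76 genes of amino acid breakdown, the urea cycle and methyl groups 14 were lower and none higher (−0.85), a count of 9 without EtOH 3 and 34 without mtm 1. gatm and gamt carry out the pair of steps of creatine synthesis. gatm was 18.1 to 371 CPM in mtm livers (median 103.1) and 1674, 1188, 2096 and 1249 CPM in EtOH livers (log2 fold change −3.71 ± 0.64, adjusted p = 0.0043), and gamt, singled out for its level, 270 to 1442 CPM (median 461) against 2188, 1857, 2261 and 2477 CPM (−1.86 ± 0.38, adjusted p = 0.010). Both lay without overlap below EtOH livers and further below WT livers, which had 2567 to 7703 and 3467 to 4881 CPM. mat1a, which makes the methyl donor for the second step, was 574 to 1927 CPM (median 714) against 2520, 2145, 2399 and 2832 CPM. cdo1, of cysteine breakdown to taurine, was 27.6 to 103.4 CPM (median 65.1) against 217, 175, 256 and 291 CPM (−1.89 ± 0.32, adjusted p = 0.0039), and gcshb, of glycine cleavage, 37 to 81.6 CPM (median 67.5) against 168, 141, 162 and 166 CPM (−1.45 ± 0.26, adjusted p = 0.0057).

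Mitochondrial respiration gave the broadest set. Of 72 oxidative phosphorylation genes 28 were called lower and none higher, 38.9% against the 3.60% of all genes called lower. For 33 of the 72 all mtm libraries lay below all EtOH libraries, which held for 4.22% of all genes. The summed level of the list overlapped, at 9335 to 17244 CPM in mtm and 14994 to 19245 CPM in EtOH livers. The median log2 fold change was −0.74. ndufb10, ndufv2 and ndufs3 encode subunits of complex I. They were 44.3 to 90.9, 19.3 to 53.3 and 52.4 to 77.9 CPM in mtm livers. In EtOH livers ndufb10 was 184, 127, 166 and 138 CPM, ndufv2 142, 93.3, 115 and 105 CPM, and ndufs3 146, 114, 149 and 137 CPM, all above the mtm range. cyc1, of complex III, was 94.2 to 239 CPM against 389, 284, 384 and 412 CPM (log2 fold change −1.23 ± 0.26, edgeR adjusted p = 0.014). WT livers overlapped the EtOH range for the 4 genes, with 84.3 to 193 CPM of ndufb10 and 198 to 455 CPM of cyc1. The mitochondrial ADP/ATP carrier slc25a5, one of the most abundant genes called, was 2713 to 4955 CPM (median 3157) against 7178, 5751, 7919 and 8128 CPM and lost its call without EtOH 1 or EtOH 3 (up to 0.0628). The count of the list fell to 6 without EtOH 1, 13 without EtOH 2 and 8 without EtOH 3, to 16 without mtm 1, mtm R2 and EtOH 1 together, and to 0 with only the 10 libraries, while it rose to 42 without mtm 1. Its median remained between −0.83 and −0.69 in these fits.

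In peroxisomes 6 of 38 genes were lower and none higher (median −0.56; 3 without EtOH 1 or EtOH 3 and 12 without mtm 1), and in fatty acid oxidation 4 of 36 (−0.61), with none without EtOH 1 or EtOH 2, 1 without EtOH 3 and 9 without mtm 1. pipox, a peroxisomal oxidase of pipecolic acid and sarcosine, had 16, 0 and 0 counts in mtm replicates 1 to 3 and 0, 0 and 25 in R1 to R3, against 596, 241, 546 and 403 in EtOH livers. WT livers had 30.6 to 74.0 CPM, close to the EtOH range of 21.6 to 42.5 CPM. agxta, which detoxifies glyoxylate, was 305 to 728 CPM (median 404) against 1146, 955, 1450 and 1350 CPM (log2 fold change −1.33 ± 0.24, edgeR adjusted p = 0.0052), and phyhd1 was 42.9 to 186 CPM (median 69.6) against 319, 222, 279 and 300 CPM. Genes of fatty acid synthesis and lipid droplets gave 1 higher and 3 lower of 51 (median −0.08, and 0.06 without EtOH 3), with 1 lower without EtOH 1, none without EtOH 3 and 7 without mtm 1. The share called in either direction was 7.84%, near the 6.11% of all genes. The one higher was mgll, the lipase for monoglycerides, at 127 to 550 CPM (median 325) against 119, 88.3, 55.5 and 56.1 CPM (2.08 ± 0.37, adjusted p = 0.0052), and WT livers at 77.4 to 90.6 CPM resembled the EtOH livers.

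Of 52 genes of glycolysis, gluconeogenesis, fructose and glycogen 11 were lower and none higher (median −0.46), with 6, 6 and 5 lower without EtOH 1, EtOH 2 or EtOH 3 and 17 without mtm 1. pklr, the pyruvate kinase of liver, was 349 to 1167 CPM in mtm livers (median 565), 2413, 2247, 2633 and 2603 CPM in EtOH livers and 8106 to 9864 CPM in WT livers, so that the 3 groups were apart. Between the injured livers the log2 fold change was −1.96 ± 0.30 (edgeR adjusted p = 0.0025). pgk1, of the same pathway, was 163 to 431 CPM (median 241) against 757, 518, 698 and 725 CPM (−1.32 ± 0.24, adjusted p = 0.0063). The glucose transporter slc2a12 was 2.19 to 20.7 CPM (median 12.9) against 94.1, 95.9, 52.9 and 50.6 CPM (−2.66 ± 0.42, adjusted p = 0.0035), and with WT livers at 6.45 to 13.8 CPM it was the EtOH group that lay high. slc37a4a, the glucose-6-phosphate translocase, was 56.1 to 217 CPM (median 86.1) against 396, 199, 341 and 373 CPM, overlapping through 1 library of each group.

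Of complement components and regulators 3 of 38 were called higher and 3 lower (median −0.20). Each is 7.9% of the list, against 2.51% higher and 3.60% lower of all genes. The higher count held at 3 without EtOH 1, EtOH 2, EtOH 3 or mtm 1, whereas the lower count was 0, 1, 0 and 9. The 3 higher were cfbl, related to complement factor B, at 10.19 to 67.8 CPM (median 17.3) against 0.513, 2.42, 1.32 and 2.38 CPM, the positive regulator properdin cfp at 7.68 to 33.1 CPM (median 13.7) against 1.14, 3.23, 2.34 and 6.69 CPM, and the protease c1r at 4.47 to 27.3 CPM (median 12.6) against 0.799, 0.986, 4.05 and 1.85 CPM. None overlapped between groups (log2 fold change 3.74 ± 0.71, 2.87 ± 0.57 and 2.92 ± 0.61, edgeR adjusted p = 0.0070, 0.0088 and 0.012).

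In several lists few or no genes were called. None of 71 ribosomal proteins (median 0.00), 40 proteasome genes (−0.18), 45 immediate-early transcription factors (−0.51) or 25 genes of heme synthesis and iron (−0.45) passed the test, 1 of 81 genes of ribosome biogenesis was lower (−0.46), 1 of 43 p53 pathway genes lower (0.28) and 1 of 45 nuclear receptors and hepatocyte transcription factors higher (−0.15). Of 25 clock genes 2 were lower (−0.34), and of 3 vitellogenin and estrogen receptor genes 1 (−2.38). The share of clock genes was 8%, against 3.60% of all genes called lower. Counts of 1 or 2 in these lists changed when single libraries were left out. No call was made among 23 stellate cell, 18 erythrocyte or 22 exocrine pancreas markers (medians 0.09, −0.28 and −1.76, the last being 0.80 without EtOH 3).

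Among the largest differences in the lower direction, sept4b, encoding a septin, had 2 and 1 counts in mtm replicates 1 and 3 and 0 in the other 4, against 102, 43, 69 and 84 counts in EtOH livers, a pooled ratio of 174 (58.9 to 848). tmem114 was 0 to 0.366 CPM in mtm livers against 2.57, 3.67, 2.73 and 3.54 CPM, and the ubiquitin ligase subunit fbxo30a 0 to 0.613 CPM against 8.84, 2.87, 1.56 and 4.38 CPM (log2 fold change −4.77 ± 1.0 and −4.38 ± 0.87, edgeR adjusted p = 0.012 and 0.0089). Of the first 12 genes in each direction, 8 bore only a clone or locus identifier. The one with the largest called decrease, si:ch1073-110a20.2, was 0 to 0.857 CPM in mtm livers, 135, 68.8, 46.6 and 752 CPM in EtOH livers and 0.441 to 8.10 CPM in WT livers, a pattern of the EtOH group (−9.66 ± 1.06, adjusted p = 0.00038). si:ch211-71m22.3 had 0 counts in all 6 mtm libraries against 53, 54, 59 and 81 counts, at least 144-fold lower with 3 counts over the mtm group as the floor, and WT livers had 18.6 to 92.0 CPM. In the other direction si:ch211-137j23.9 had 3 counts in mtm replicate 1 and 253 to 561 in the other 5, against 0, 0, 0 and 1, and si:ch211-286b5.9 had 4 to 67 counts against 0 in all 4 EtOH libraries, at least 33.5-fold higher with the same floor, its call being lost without EtOH 3 (0.0573).

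Markers of tissue beside the liver also differed. Of 33 skeletal muscle markers 7 were lower in mtm livers and none higher (median −2.30), and of 14 heart markers 3 and none (−2.71). Without EtOH 2 none of the skeletal muscle or heart markers was called, and without EtOH 3 there were 3 and 0. pvalb1, a calcium buffer of fast muscle, was 1.56 to 271 CPM in mtm livers and 132, 1765, 126 and 109 CPM in EtOH livers, and the myosin light chain myl1 0.585 to 15.5 CPM against 11.07, 85.6, 7.63 and 6.54 CPM. Both calls were lost without EtOH 2, the library with 9223 CPM of muscle markers (edgeR adjusted p = 0.0837 and 0.0889). Cardiac actin actc1a was 0.922 to 15.7 CPM against 31.3, 95.1, 129 and 26.5 CPM, without overlap, and lost its call without mtm 2, mtm 3, EtOH 2 or EtOH 3 (up to 0.121). Of 27 intestinal markers 3 were lower (median −0.13, and 0.45 without EtOH 2; none called without EtOH 3), among them fabp2 at 0.641 to 34.3 CPM against 100, 152, 174 and 38.7 CPM and apoa4a at 0 to 3.11 CPM against 13.5, 5.47, 59.4 and 156 CPM, both with the call lost without EtOH 3 (up to 0.0870). The epidermal keratins krt91 and krt15, which were 2 of 22 skin and neural markers called, were 38.04 to 109 and 3.07 to 26.7 CPM in mtm livers. In EtOH livers krt91 was 1111, 852, 481 and 755 CPM and krt15 269, 188, 119 and 74.3 CPM, with WT ranges of 138 to 836 and 26.3 to 117 CPM (log2 fold change −3.09 ± 0.40 and −3.48 ± 0.55, adjusted p = 0.0013 and 0.0034). The summed markers of these tissues were 74.1 to 2198 CPM in mtm and 620 to 9223 in EtOH livers for skeletal muscle, 11.07 to 78.9 and 71.8 to 292 for heart, 479 to 1833 and 1613 to 1935 for intestine, and 216 to 1079 and 978 to 3147 for skin and neural cells. apoa4b.1 made up 50.4% of the intestinal counts, and without fabp2 and the apoa4 genes that sum was 280 to 1341 CPM in mtm and 337 to 831 CPM in EtOH livers, with a higher mean in mtm (636 against 512 CPM). Exocrine pancreas markers, of which 0 were called, had larger sums, at 424 to 22603.6 CPM in mtm and 3067 to 34036.5 CPM in EtOH livers. The highest libraries were mtm 1 and EtOH 3, and WT livers ranged from 1283 to 70144.7 CPM. The part of carried-over tissue in these differences was not tested.

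The neighbourhood of mtm1 was examined because livers of a mutant line share the chromosome segment around the mutation. In the GRCz12tu annotation, used here for gene order alone, mtm1 lies on chromosome 7, where 38 of 661 tested genes were called (5.75%) against 6.08% of the 11949 genes matched to a chromosome. Of the 25 tested genes on each side of mtm1, 4 of 50 were called, the matrix protease mmp14a, krcp, sb:cb1058 and zgc:77439, the last 3 named after the values were seen.

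**Figure D5:**
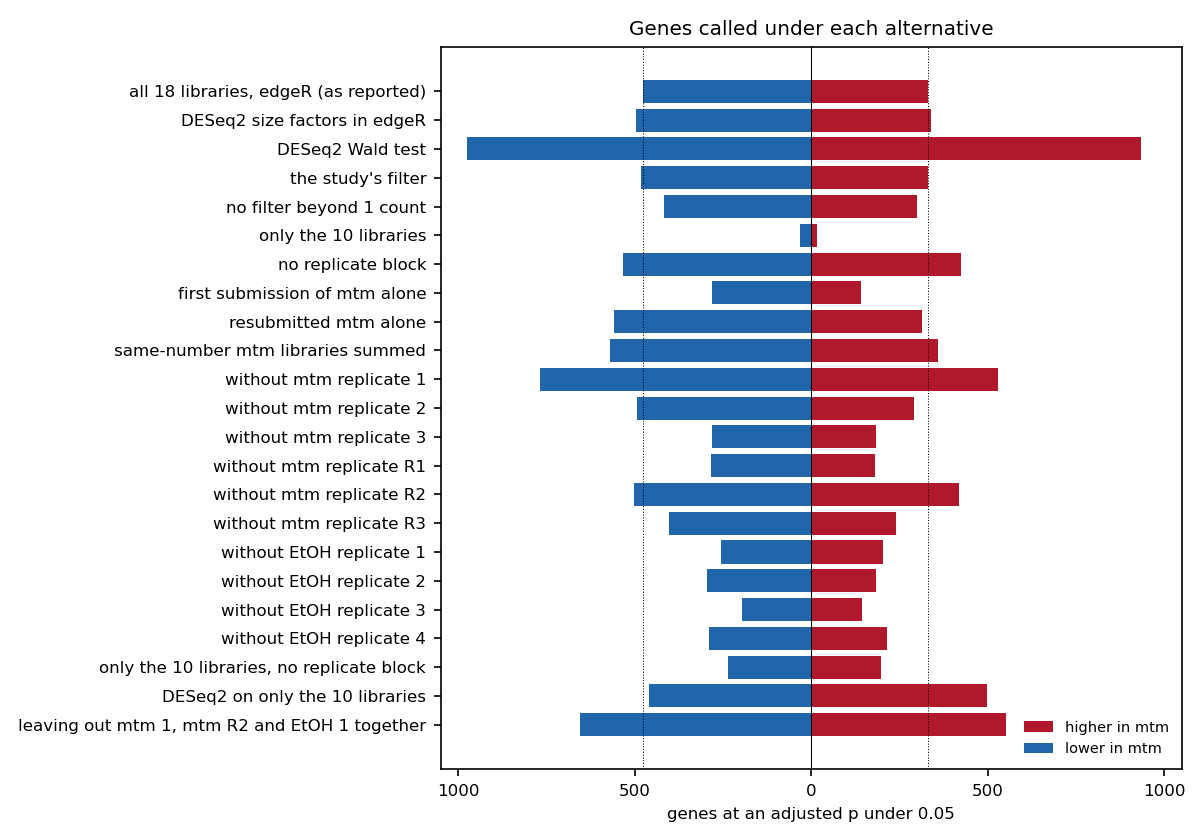
Number of genes called higher (right, red) and lower (left, blue) in mtm than in EtOH livers under each alternative, with dotted lines at the reported 331 and 476. The counts fall to 15 and 31 when only the 10 libraries enter the edgeR fit and rise to 933 and 977 with DESeq2 on all 18 libraries.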

How the data were processed

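RNA of 40 pooled livers per library was amplified with SMART-Seq v4, prepared with Nextera XT, which does not mark strand, and sequenced in pairs of 100 bases. The authors trimmed reads with Trim Galore 0.6.6, checked them with FastQC 0.11.09 and quantified genes with Salmon against GRCz11. The deposited values are estimated counts per gene, listed as whole numbers and not normalized, and close copies of a gene may share reads. Here genes with a summed count of 100 or more over the 10 mtm and EtOH libraries were kept. edgeR 4.0.16 (R 4.3.3) was fitted to all 18 libraries of the experiment with 40 livers per pool, with group and replicate number as terms and TMM scaling, and mtm was tested against EtOH by quasi-likelihood. P-values were adjusted by Benjamini-Hochberg over all 13209 genes, at a limit of 0.05. DESeq2 1.42.0 was an alternative. The steps were tested on simulated data. Log2 CPM used a prior count of 2, and ratios of pooled counts have exact 95% binomial intervals for counting error only.

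The comparison, the 51 gene lists and the tests were chosen with earlier results of these data known. The rule for named genes took the 12 largest called differences in each direction without overlap and with a mean of 1 CPM or more, up to 4 called genes per list, and genes of the study's question. The text gives a part of these, mostly those whose call held when a library was left out, so their stability is not a measure of all calls. Of 15 genes listed under dates, 9 were tested. No sequences are given.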

Additional observations from a re-analysis of the deposited data

Results flagged for a closer look

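A library far from the others of its group was found in 28 of 272 groups of values examined (Dixon's criterion, which chance meets in about 1 of 20 groups). Of these, 9 fell on mtm 1, 5 on mtm R2, 5 on EtOH 4, 4 on EtOH 2, 3 on EtOH 3, and 1 each on EtOH 1 and mtm R1. Where all other libraries of a group had 0 counts, any count met the criterion. The rate of 1 of 20 does not apply to such flags, which are included in these numbers. All values are CPM unless given as counts, and the causes were not tested.

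In mtm 1, low values were found for cdc20 (0.857 against 3.80 to 8.68 in the other mtm libraries), ccl35.1 (63.3 against 284 to 599), ppt1 (92.3 against 154 to 187), tmsb4x (1420 against 3754 to 6051), si:ch211-137j23.9 (0.321 against 14.1 to 25.7) and the lymphocyte and NK cell marker sum (138 against 233 to 315). High values in mtm 1 were those of fabp10a (26350 against 7122 to 11560), hpx a (16.9 against 0.0783 to 0.947) and sept4b (0.214 against 0 to 0.0488). In mtm R2, low values were found for rab11bb (0.0768 against 3.21 to 8.79), cyth4b (0.691 against 4.58 to 10.3), plvapb (18.1 against 50.8 to 58.5), mgst3b (40.2 against 75.0 to 101) and apoa4a (0 against 0.915 to 3.11). In mtm R1, slc2a12 was low (2.19 against 12.5 to 20.7).

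Among EtOH libraries, EtOH 4 was high for cyp7a1 (564 against 223 to 235) and acss2l (5.31 against 3.65 to 3.76). It was also flagged for csf1ra (0.154 against 0), il1fma (0.231 against 0) and si:ch211-137j23.9 (0.0769 against 0). For these genes EtOH 4 had 2, 3 and 1 counts. With 0 in every other EtOH library the criterion could not fail, so these flags do not set EtOH 4 apart. EtOH 2 was high for pvalb1 (1765 against 109 to 132) and the skeletal muscle marker sum (9223 against 620 to 803), and low for the hepatocyte marker sum (135200 against 186800 to 194700), also without fabp10a (129800 against 180700 to 188600). EtOH 3 was low for ccl35.2 (1.01 against 2.46 to 2.62) and lyve1a (93.2 against 155 to 168). Its flag for cyth4b (0.234 against 0) rested on 3 counts and could not fail for the same reason. EtOH 1 was high for gstk1 (83.8 against 30.0 to 31.8).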

How the results depend on the processing

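The number of calls depended on the tool and on the libraries and terms in the fit. With only the 10 libraries and the replicate term, EtOH 4 alone carries replicate number 4, so the contrast rests on EtOH 1 to 3. What part of the fall in calls this accounts for was not tested, nor was the cause of the other changes. Against 331 genes higher and 476 lower (143 and 158 past the fold limit), DESeq2 called 933 and 977 (377 and 325), and edgeR with only the 10 libraries 15 and 31 (14 and 24), where 45 of the 46 were among the 807. mtm replicates 1 to 3 alone gave 141 and 282 (83 higher past the fold limit). The following were added after seeing the data: the 10 libraries without the replicate number as a block gave 196 and 236 (89 and 70), DESeq2 on the 10 libraries 498 higher (297 past the limit), and leaving out mtm 1, mtm R2 and EtOH 1 together 552 higher (231 and 286 past the limit). Leaving out 1 library gave 144 to 529 higher and 197 to 768 lower genes, and 91 to 211 and 100 to 249 past the fold limit. Between the first and the resubmitted mtm libraries edgeR called 0 genes and DESeq2 125, with 0 to 7 when 1 library was left out. rab11bb, not called, changed sign with mtm replicates 1 to 3 alone (0.12), without mtm 1, mtm R2 and EtOH 1 (0.29), and over single libraries left out (−0.66 to 0.70). Size factors, the study's filter, no filter, the resubmitted libraries alone and summed libraries kept both counts within 1.5 times. Correlations between same-numbered libraries were −0.41 to 0.16 after centring of each gene within its group. Such centring itself pushes correlations within the mtm group below 0. These values therefore cannot decide whether the numbers pair the samples. With no replicate block 425 genes were higher and 535 lower, and 693 of the 807 were shared.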
